A study of Mus musculus with 29 samples.

Results

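The effect of losing Cdkn1b on the ovary was compared across birth, by asking for every gene whether the difference between Cdkn1b-null and wild-type mouse ovaries at postnatal day 8 (PND8) differed from that at embryonic day 18.5 (E18.5). The contrast used the 15 samples of these ages out of the 29 in the series, chosen by the age in their titles. They were 4 wild-type (Cdkn1b +/+) and 4 null (Cdkn1b -/-) samples at E18.5, and 4 wild-type and 3 null samples at PND8. Each sample was ovarian tissue dissociated to cells with papain, from which total RNA was sequenced in bulk, with no sort for a cell type. The labels name the null alleles by genotype only. They do not give the strain, the part of the gene that was removed, whether animals were pooled or which were littermates, so p-values measure the spread between these samples.

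Cdkn1b encodes p27Kip1, an inhibitor that binds complexes of cyclins with cyclin-dependent kinases and holds cells in G1. When the kinases are active they phosphorylate the retinoblastoma family proteins, which releases E2F factors and the transcription of genes for DNA replication, and later of genes for mitosis. In the fetal ovary p27 is known as a marker of pregranulosa cells that have stopped dividing, and after birth the oocytes of primordial follicles and their flat granulosa cells also hold it.

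Total counts were 17.3 to 22.8 M per library at E18.5 and 32.3 to 48.2 M at PND8, so that 3 counts, taken as the lowest level a library can show, were 0.132 to 0.173 CPM at E18.5 and 0.0622 to 0.0929 CPM at PND8 (CPM, counts scaled to a common library total, here with TMM factors between libraries unless stated). These floors cover counting error only. The libraries stood apart in their red cell RNA: the summed level of the 8 erythroid genes tested (mainly globins) was 1647 to 33870 CPM in wild type and 1638 to 23830 CPM in null libraries at E18.5, and 7.76 to 195 CPM against 161 to 1810 CPM at PND8. The granulosa list was present in every group, with summed levels from 3222 to 8227 CPM, and the oocyte list ran from 298 to 2686 CPM. In bulk RNA, fewer cells of a type and less RNA per cell cannot be told apart. The header of the deposited table names 2 combined projects without saying which samples belong to which, and the ages differ in depth. Each genotype difference was taken within an age. If the genotypes of an age came from different projects, the effects of project and genotype could not be told apart.

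The targeted gene, Cdkn1b (ENSMUSG00000003031, GRCm38 chromosome 6, 134920401 to 134925513, plus strand), was lower in null libraries at both ages, and much less so at PND8. At E18.5 it measured 124, 102, 96.9 and 102 CPM in wild type and 9.33, 15.8, 11.5 and 13.9 CPM in null libraries. At PND8 it measured 134, 144, 170 and 141 CPM in wild type and 77.9, 69.3 and 64.7 CPM in the libraries labelled null. The genotypes did not overlap at either age, and every null library at PND8 stood above every null library at E18.5. The log2 fold change was -3.07 ± 0.15 (SE) at E18.5 and -1.06 ± 0.15 at PND8, and their difference was 2.01 ± 0.20 (edgeR quasi-likelihood, Benjamini-Hochberg adjusted p = 0.000787). Scaled by library totals alone, null libraries held a mean Cdkn1b level of 11.8% of wild type at E18.5 and 48% at PND8, beside 19.9% in the E13.5 samples and 27.7% in those of 12 weeks. What part of the transcript remains in the null allele is not stated, so these reads give no level of p27 protein, and the genotype at PND8 is that of the labels throughout. Because the targeted gene itself differed less between the genotypes at PND8, this stands beside every smaller difference reported for that age. Its part in them was not tested.

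Of 18687 genes tested, 156 (0.835%) had a genotype difference that changed between the ages by the interaction test at an adjusted p under 0.05 (edgeR quasi-likelihood, Benjamini-Hochberg), and such genes are described as called. The PND8 difference lay below the E18.5 difference in 115 of them (0.615%) and above it in 41 (0.219%). Before adjustment 2560 genes (13.7%) had a p under 0.05 for the interaction, 7.5% higher and 6.2% lower. The unadjusted shares were 25.6% at E18.5 (10.8% higher and 14.9% lower) and 9.61% at PND8 (4.19% higher and 5.41% lower), and unadjusted counts within the gene lists below stand beside these. At E18.5 the same fit called 1714 genes (9.17%), of which 927 (4.96%) were higher and 787 (4.21%) lower in null ovaries. At PND8 it called 56 (0.3%), of which 18 (0.0963%) were higher and 38 (0.203%) lower. Called counts within the gene lists below also stand beside these shares of all genes. Standard errors of the log2 fold changes had medians of 0.19 at E18.5 and 0.20 at PND8. The joint fit gave both ages a common spread for each gene, so these values do not compare the spread at the 2 ages.

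The interaction count moved with single libraries. Without PND8 null replicate 3 it was 49, and without E18.5 wild-type replicate 2 it was 402. It also moved by over 1.5 times without E18.5 wild-type replicates 1 (274) and 4 (98), without E18.5 null replicates 3 (81) and 4 (78), without PND8 wild-type replicates 2 (82), 3 (96) and 4 (93), and without PND8 null replicates 1 (88) and 4 (83). Of the 49 genes called without PND8 null replicate 3, 46 were among the 156, and of the 402 called without E18.5 wild-type replicate 2, 154 were. With a block on the replicate number, which the labels tie to no animal or litter, 10 interactions were called. The PND8 count of 56 became 20 without PND8 wild-type replicate 2 or 4, 22, 29 and 37 without PND8 null replicates 3, 4 and 1, and 85 without E18.5 wild-type replicate 2. With PND8 fitted alone it was 62 (8 higher and 54 lower), and 27 of these were among the 56. The E18.5 count became 935 and 996 without E18.5 null replicates 3 and 4 and 1096 without E18.5 wild-type replicate 4, with a highest value of 2347 without E18.5 wild-type replicate 2. Where each age was fitted alone, 542 genes were higher and 272 lower at E18.5. With no filter on low counts these were 807 and 428, and with all 29 samples in the fit they were 670 and 214, so the near balance of directions at E18.5 depended on these choices. The fit of all 29 samples called 67 interactions, and of the 31 genes named here for a called interaction it kept 14: Cdkn1b, Cdc20, Cdt1, Cdc6, Top2a, Zscan26, Chaf1b, Racgap1, Plk1, Tnni3, Exo1, Ccnb1, Ddhd2 and Gm27624.

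The 156 genes were divided by what the fit called at each age. In 144 of them (faded) the difference was called at E18.5 and was smaller in size at PND8. In 8 (gained) it was called at PND8 and was larger there. None was called at both ages in opposite directions (reversed), while 74 genes had opposite directions with an unadjusted p under 0.05 at both ages. DESeq2 placed 5 genes in the reversed class and limma with sample weights placed 8. In the remaining 4 neither description applied. The call threshold cut through a run of like values: Kif4 (adjusted p = 0.049) and Alcam (0.0494) were just inside it, and Aif1l (0.0501) and Gm15501 (0.0505) were just outside (edgeR quasi-likelihood, Benjamini-Hochberg).

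**Figure D1:**
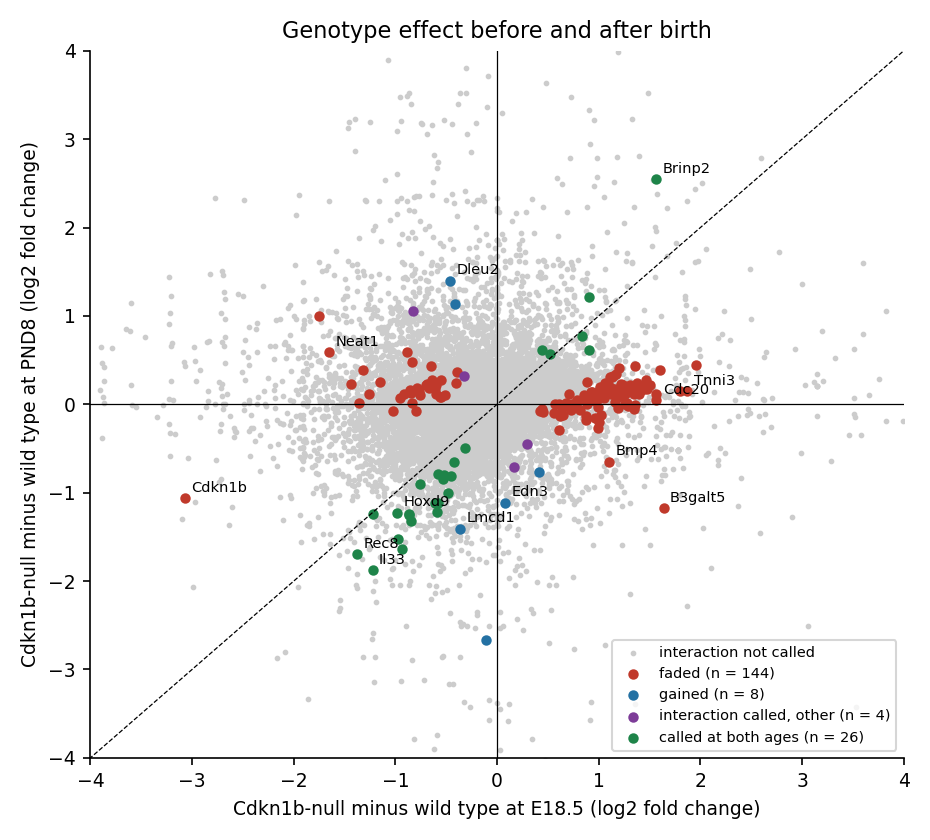
Log2 fold change of null over wild type at E18.5 (x axis) and PND8 (y axis) for each gene tested, with colours for the classes and a dashed line where the effects are equal; 62 genes lie outside the axes. The faded genes form a horizontal band near 0 on the PND8 axis, to the right for the 109 that were higher at E18.5, while the genes called at both ages lie in the lower left and upper right quadrants.

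Most genes that differed at E18.5 were neither called at PND8 nor called as changed between the ages. Of the 1714 genes called at E18.5, 145 (8.46%) were called for the interaction, 27 (1.58%) were called at PND8 in the same direction, and 1543 (90%) had neither call, so for these the data do not settle whether the difference faded. Of all 1714, the PND8 estimate had the opposite sign in 468 (27.3%), against 8255 (44.2%) of all genes tested. The 927 genes higher at E18.5 had a median log2 fold change of 0.54 there and 0.12 at PND8, and 742 of them (80%) kept a positive estimate. The 787 lower genes had medians of -0.75 and -0.10, and 504 (64%) kept a negative estimate. These genes were chosen by their E18.5 values, which by itself makes a smaller estimate at the other age more frequent. Over all genes tested the medians were -0.07 at E18.5 and 0.00 at PND8.

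Genes of cell division made up the largest share of the faded genes that stood in a list. The lists were chosen with earlier results of these data known, so their counts are a description. Of 56 genes of DNA replication, 49 were called higher in null ovaries at E18.5, none at PND8, and 22 were called for the interaction, all with a smaller difference at PND8. Of 53 genes of mitosis, 45 were higher and 1 lower at E18.5, none was called at PND8, and 26 faded. At an unadjusted p under 0.05 at PND8, 9 of the replication genes and 7 of the mitosis genes were higher and none was lower, beside 4.19% higher and 5.41% lower of all genes tested. The median log2 fold changes were 0.89 at E18.5 and 0.15 at PND8 for replication, and 0.98 and 0.16 for mitosis. At PND8 51 of the 56 and 50 of the 53 estimates were above 0. Without PND8 null replicate 3 the called counts were 7 and 12, and without E18.5 wild-type replicate 1 they were 34 and 34. Without E18.5 wild-type replicate 3 (12), E18.5 null replicate 3 or 4 (11), PND8 wild-type replicate 2, 3 or 4 (12, 13 and 12), or PND8 null replicate 1 or 4 (11), the replication count was also more than 1.5 times lower. With a block on the replicate number, 1 gene of each list was called for the interaction. The median interactions were then -0.74 and -0.857, beside -0.762 and -0.841 without the block.

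The summed level of the lists was set side by side for the 4 groups. The ages differ in depth, and which project each sample came from is not stated, so levels across ages are a description. The replication list summed to 2947 to 3829 CPM in wild-type and 5449 to 6649 CPM in null libraries at E18.5, and to 4600 to 5423 CPM and 5583 to 5740 CPM at PND8. The mitosis list summed to 2169 to 2860 CPM and 4259 to 5661 CPM at E18.5, and to 4898 to 5896 CPM and 5727 to 6487 CPM at PND8. At E18.5 the genotypes were widely separate for both lists. At PND8 the replication sums still did not overlap, while the mitosis sums did. The mitosis sums of PND8 wild-type libraries overlapped the range of the E18.5 null libraries and reached above it.

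**Figure D2:**
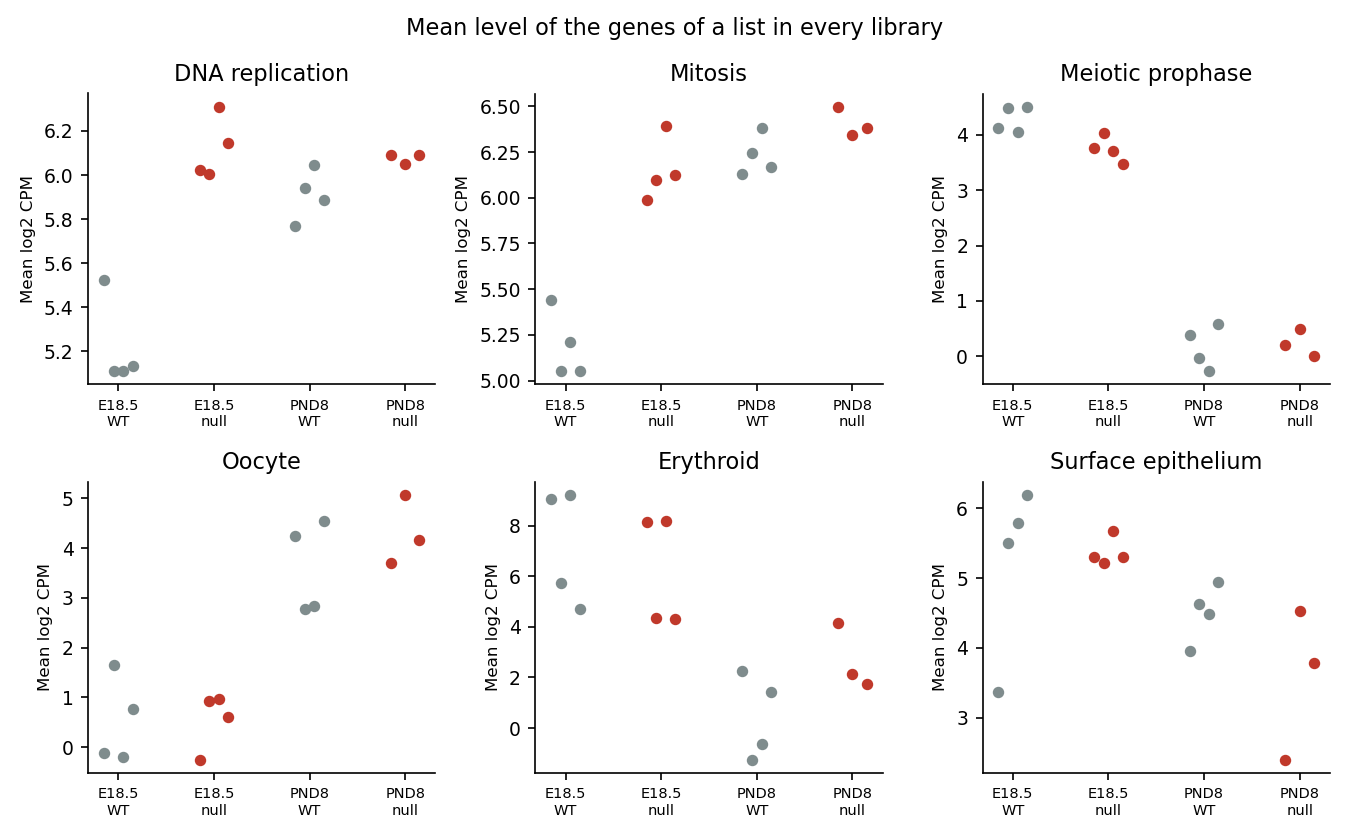
Mean log2 CPM over the genes of 6 lists in every library (dots; wild type grey, null red; each panel has its own y axis, which does not start at 0). For DNA replication and mitosis the 4 wild-type libraries of E18.5 lie below every other library, while the erythroid, oocyte and surface epithelium panels show libraries of 1 group spread widely.

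Cdc20, the activator of the anaphase-promoting complex, had the smallest interaction p of the faded genes that were higher at E18.5. It measured 47.3, 43.2, 41.8 and 37.9 CPM in wild-type and 113, 128, 135.3 and 128 CPM in null libraries at E18.5. At PND8 it measured 95.9, 126, 142 and 108 CPM in wild-type and 128, 112 and 125 CPM in null libraries. All 4 null libraries were above all wild-type libraries at E18.5, and the groups overlapped at PND8. The log2 fold change was 1.57 ± 0.12 at E18.5 and 0.05 ± 0.12 at PND8, a difference of -1.52 ± 0.17 (edgeR quasi-likelihood, Benjamini-Hochberg adjusted p = 0.00105), called in all 22 alternative fits. Exons of Cdc20 overlap those of Elovl1 on the other strand, and whether the counting used strand is not given in the sources used here.

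Racgap1, a subunit of the centralspindlin complex that organizes the division plane, measured 58.0, 43.0, 49.1 and 42.9 CPM in wild-type and 124, 126, 157 and 140 CPM in null libraries at E18.5. At PND8 the values were 151, 177, 197 and 154 CPM against 218, 187 and 185.1 CPM. The groups were apart at E18.5 and overlapped at PND8, where wild type had reached the E18.5 null level. The difference between the ages was -1.29 ± 0.18 (edgeR quasi-likelihood, Benjamini-Hochberg adjusted p = 0.008). Plk1, a kinase of mitotic entry and exit, fell from a log2 fold change of 1.57 ± 0.15 to 0.12 ± 0.16, with wild-type libraries at 28.3 to 40.8 CPM at E18.5 and 77.5 to 109 CPM at PND8. Top2a, the topoisomerase that untangles sister chromatids, went from 1.38 ± 0.13 to 0.24 ± 0.14, and Ccnb1, the mitotic cyclin B1, from 1.41 ± 0.15 to 0.15 ± 0.16. Ccnb1 lost its call without PND8 null replicate 3.

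Among replication genes Chaf1b, a subunit of the chromatin assembly factor that loads histones behind the fork, measured 29.1, 21.4, 25.0 and 27.1 CPM in wild-type and 61.7, 59.2, 66.8 and 72.9 CPM in null libraries at E18.5. At PND8 it measured 50.1, 65.0, 69.4 and 59.8 CPM against 67.1, 71.0 and 61.3 CPM. Null libraries were higher without overlap at E18.5 and overlapped the wild-type range at PND8. The difference between the ages was -1.22 ± 0.17 (edgeR quasi-likelihood, Benjamini-Hochberg adjusted p = 0.0091). Cdc6 and Cdt1, which load the MCM helicase at origins, went from 1.80 ± 0.18 to 0.15 ± 0.18 and from 1.48 ± 0.13 to 0.17 ± 0.14. The null libraries of Cdc6 dropped with age, from 49.6 to 80.6 CPM at E18.5 to 37.1 to 41.1 CPM at PND8. Exo1, an exonuclease of mismatch repair, measured 12.9 to 17.7 CPM in wild-type and 34.1 to 43.2 CPM in null libraries at E18.5, and its PND8 fold change was 0.21 ± 0.11. Its PND8 groups did not overlap, with 46.4 to 52.0 CPM in wild-type and 53.1 to 59.7 CPM in null libraries.

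**Figure D3:**
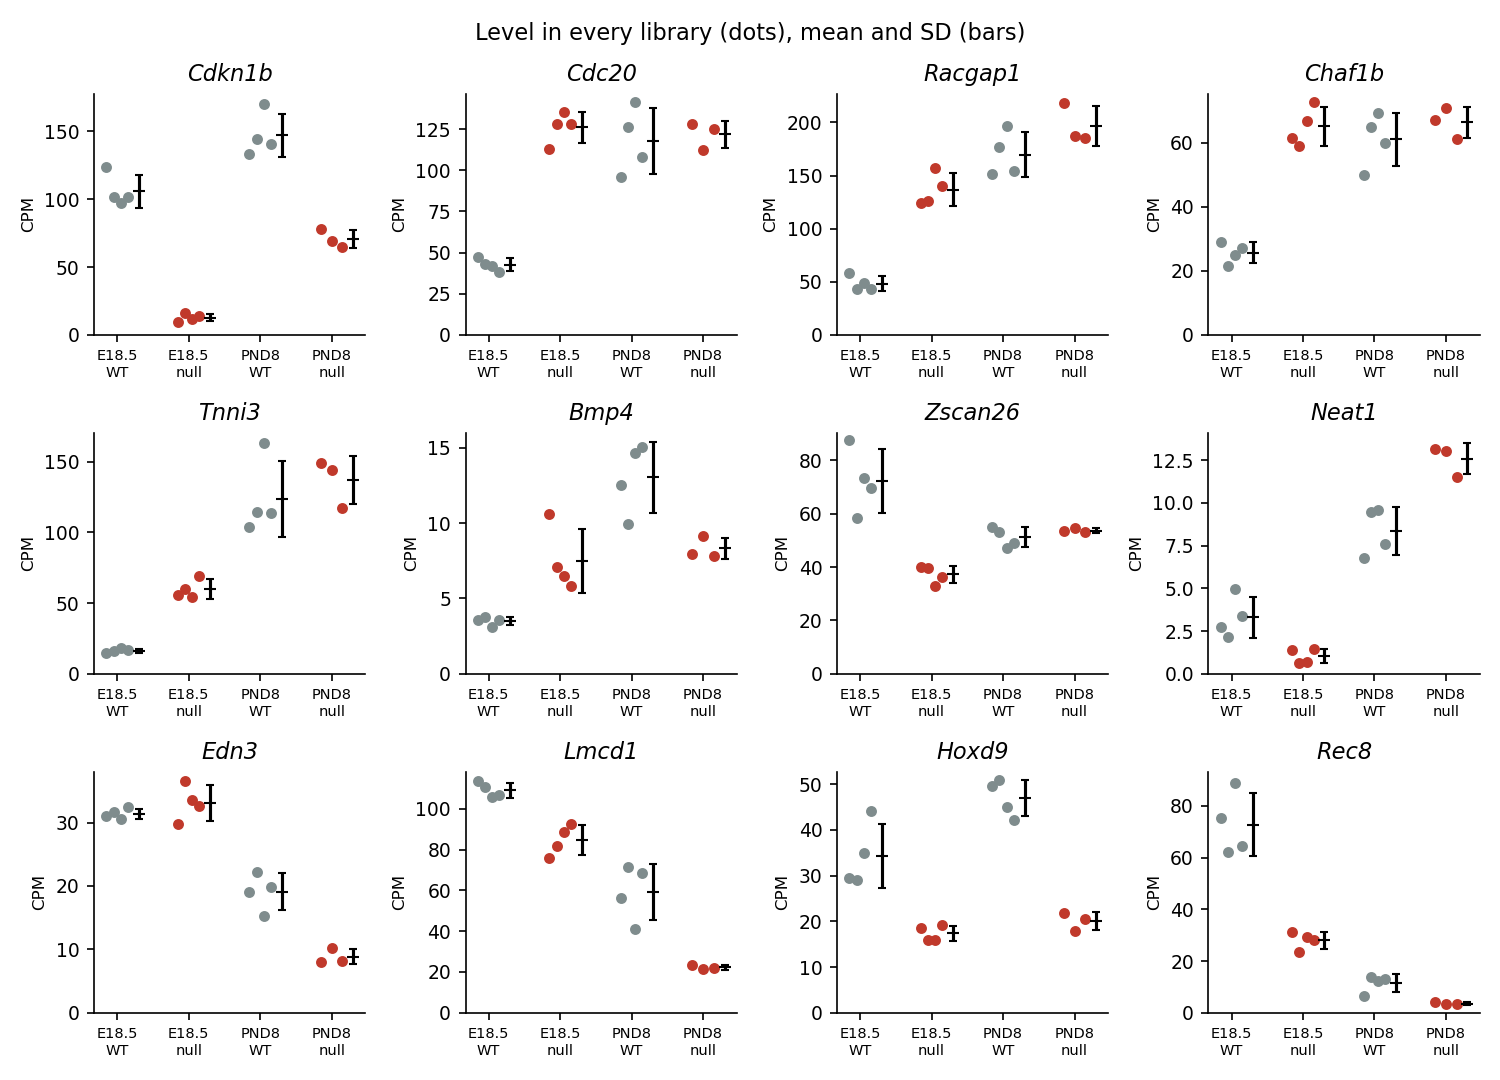
CPM of 12 genes in every library (dots; wild type grey, null red) with the group mean and SD (bars); each y axis starts at 0. In the Cdc20, Racgap1, Chaf1b and Tnni3 panels wild type at PND8 lies near or above the E18.5 null level. The lower row shows a difference seen at PND8 for Edn3 and larger there for Lmcd1. For Hoxd9 and Rec8 null libraries lie below wild type at both ages, and the CPM gap of Rec8 is much smaller at PND8.

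Promoters of faded cell division genes were read because genes of this kind share short promoter elements: E2F sites at replication genes, and the cell cycle genes homology region (CHR, TTTGAA) with CCAAT boxes at mitosis genes. The sequences below are the 150 bases before the start in RefSeq on GRCm38.p6, 5′ to 3′ on the strand of the gene, with capitals marking each match to the CHR, to CCAAT or to an E2F site on either strand. The letters searched for E2F were TTCCCGC in a first form, TTCGCGC in another, TTGCCGC in the next and TTGGCGC in the last. Cdc20 (chr4:118437344-118437493, minus strand) and Top2a (chr11:99024190-99024339, minus strand) hold a CHR and CCAAT boxes, Ccnb1 (chr13:100786487-100786636, minus strand) holds CCAAT boxes, the first of which overlaps an E2F match, and Cdc6 (chr11:98908001-98908150, plus strand) holds an E2F match.
Cdc20: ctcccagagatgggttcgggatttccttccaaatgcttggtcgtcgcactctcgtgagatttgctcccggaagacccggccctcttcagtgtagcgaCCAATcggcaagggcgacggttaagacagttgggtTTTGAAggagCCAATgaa
Top2a: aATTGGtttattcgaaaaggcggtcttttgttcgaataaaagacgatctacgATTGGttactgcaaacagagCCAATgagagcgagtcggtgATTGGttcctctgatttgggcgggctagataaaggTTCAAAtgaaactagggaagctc
Ccnb1: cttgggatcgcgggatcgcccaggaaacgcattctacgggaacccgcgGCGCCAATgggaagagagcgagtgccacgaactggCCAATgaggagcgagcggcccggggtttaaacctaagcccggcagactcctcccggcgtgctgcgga
Cdc6: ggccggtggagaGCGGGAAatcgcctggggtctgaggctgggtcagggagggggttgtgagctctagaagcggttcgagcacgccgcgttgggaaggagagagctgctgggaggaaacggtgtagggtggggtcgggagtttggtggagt

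In windows of 300 bases, from 250 before to 50 after the start, a CHR was found in 39.8% of the 83 promoters matched to the 109 faded genes that were higher at E18.5, a CCAAT box in 63.9%, an E2F match in 31.3%, and a CHR with a CCAAT box in 28.9%. Of the 27025 promoters in the table, 18.1% held a CHR, 37.9% a CCAAT box, 9.69% an E2F match and 7.12% a CHR with a CCAAT box. Of 12740 promoters matched to genes tested here, the shares were 12.2%, 38.4%, 16.2% and 5.06%. In the 22 promoters matched to the 35 faded genes that were lower at E18.5, they were 4.55%, 36.4%, 13.6% and 4.55%. The mitosis list held a CHR in 68.9% of 45 matched promoters and an E2F match in 15.6%, and the replication list held a CHR in 14% and an E2F match in 60.5% of 43. Thus the faded genes that were higher at E18.5 held more of each element than the genes tested, and they include 48 genes of the lists. These shares describe letters in a window and were not tested.

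The other 61 faded genes that were higher at E18.5 stood in neither list. Tnni3, the cardiac form of troponin I, measured 14.8, 15.8, 17.9 and 17.0 CPM in wild-type and 55.6, 60.2, 54.6 and 69.5 CPM in null libraries at E18.5. At PND8 it measured 104, 115, 163 and 114 CPM against 149, 144 and 118 CPM. The E18.5 groups were far apart, the PND8 groups overlapped, and both genotypes were higher at PND8 than at E18.5. The difference between the ages was -1.72 ± 0.20 (edgeR quasi-likelihood, Benjamini-Hochberg adjusted p = 0.00143). Exons of Tnni3 overlap those of Dnaaf3 on the same strand, so the split of reads between them is uncertain. Named after their values were seen, Slfn9, of the Schlafen multigene family whose reads may be split among copies, had a log2 fold change of 1.96 at E18.5 and 0.45 at PND8. Phgdh and Psat1, enzymes of serine synthesis, had 0.62 and 0.97 at E18.5 and -0.13 and -0.16 at PND8, and Shmt1, which moves carbon units from serine to folate, had 1.01 and 0.08.

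Bmp4, a secreted growth factor of the BMP family, had an estimate that changed sign. It measured 3.54, 3.80, 3.09 and 3.56 CPM in wild-type and 10.6, 7.09, 6.49 and 5.84 CPM in null libraries at E18.5, and 12.5, 9.90, 14.6 and 15.1 CPM against 7.96, 9.14 and 7.82 CPM at PND8. The groups were apart at both ages, with null above wild type before birth and below it after. The log2 fold change was 1.10 ± 0.20 at E18.5 and -0.65 ± 0.21 at PND8, where it was not called, and the difference was -1.75 ± 0.29 (edgeR quasi-likelihood, Benjamini-Hochberg adjusted p = 0.0119). All 15 fits that left out 1 library kept the Bmp4 call, and the fit of all 29 samples did not (adjusted p = 0.117, edgeR). B3galt5, a galactosyltransferase that builds glycolipid and glycoprotein chains, went from 1.64 ± 0.44 to -1.18 ± 0.36, with E18.5 levels of 0.107 to 0.348 CPM in wild-type and 0.238 to 0.846 CPM in null libraries, near the floor. At PND8 its wild-type libraries held 6.75, 6.58, 11.2 and 6.81 CPM and its null libraries 2.75, 3.42 and 4.25 CPM. The B3galt5 call held in 5 of the 15 fits that each left out 1 library.

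Of 26 genes of steroid and cholesterol synthesis, 11 were called higher in null ovaries at E18.5, beside 4.96% of all genes, and none at PND8. The 2 that faded were Fdft1 and Sqle, which encode squalene synthase and squalene epoxidase of the cholesterol pathway. The list medians were 0.50 at E18.5 and 0.13 at PND8. At an unadjusted p under 0.05 (edgeR quasi-likelihood), 5 genes were higher and 1 lower at PND8 (4.19% and 5.41% of all genes). By the same measure 10 interactions were lower and none higher (6.2% and 7.5%). The PND8 median was 0.05 without PND8 null replicate 4. Sqle measured 61.4 to 81.1 CPM in wild-type and 110 to 163 CPM in null libraries at E18.5, and 65.8 to 84.1 CPM and 74.0 to 82.7 CPM at PND8. Its difference between the ages was -0.87 ± 0.19, and that of Fdft1 was -0.78 ± 0.17. The groups of both genes were apart at E18.5 and overlapped at PND8. Their calls held in 5 and 3 of the 15 fits that left out 1 library, and exons of Fdft1 overlap those of Ctsb on the other strand.

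Fewer genes that were lower in null ovaries faded, 35 in all. Their median log2 fold change was -0.78 at E18.5 and 0.18 at PND8, and 32 had a PND8 estimate of the opposite sign. Cdkn1b was one of them and the only one of the 35 still called at PND8. Zscan26, a zinc finger protein, measured 87.7, 58.4, 73.4 and 69.8 CPM in wild-type and 40.0, 39.6, 33.0 and 36.4 CPM in null libraries at E18.5, then 55.1, 53.2, 47.0 and 49.1 CPM against 53.5, 54.5 and 53 CPM at PND8. The groups were apart before birth and overlapped after it. Its log2 fold change was -0.96 ± 0.11 and then 0.07 ± 0.12, a difference of 1.03 ± 0.16 (edgeR quasi-likelihood, Benjamini-Hochberg adjusted p = 0.0102).

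Ddhd2, a lipase that acts on triglycerides in neurons, went from -0.60 ± 0.09 to 0.12 ± 0.09. Ddhd2 lost the call without PND8 null replicate 3. The long noncoding RNA Neat1, which builds nuclear paraspeckles, measured 2.76, 2.14, 4.95 and 3.39 CPM in wild-type and 1.38, 0.635, 0.716 and 1.45 CPM in null libraries at E18.5, and 6.75, 9.48, 9.58 and 7.62 CPM against 13.1, 13.1 and 11.5 CPM at PND8. Its groups were apart in opposite directions at the 2 ages, with log2 fold changes of -1.65 ± 0.30 and 0.59 ± 0.28. The Neat1 PND8 effect was not called, and its interaction call was lost without PND8 null replicate 1 or 3.

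The change with age was then followed in each genotype for the faded genes (an added contrast of the same fit). It sets the ages against each other, and these differ in depth and may differ in project. Of the 109 that were higher in null ovaries at E18.5, 91 rose from E18.5 to PND8 in wild type and 6 fell, while in null ovaries 39 rose and 28 fell. In 42 the wild type rose and the null change was not called, in 39 both rose, in 10 the wild type rose and the null fell, and in 12 the wild type was not called and the null fell. The median log2 change with age was 1.10 in wild type and 0.03 in null ovaries. That the wild-type change exceeded the null change is fixed by how these genes were chosen, and choosing genes with a low wild-type or a high null value at E18.5 also favours a rise in wild type and a fall in null ovaries, so these counts are a description. Over all genes tested, 7212 rose and 7004 fell in wild type, and 7115 and 6737 in null ovaries. Cdc20 rose by 1.47 in wild type and changed by -0.05 in null ovaries. Cdc6 rose by 1.01 in wild type and fell by 0.64 in null ovaries, with both changes called, and Racgap1 rose in both, by 1.82 and 0.53. Of the 35 lower ones, 21 rose and 8 fell in wild type and 28 rose and 2 fell in null ovaries, with medians of 0.60 and 1.46.

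**Figure D4:**
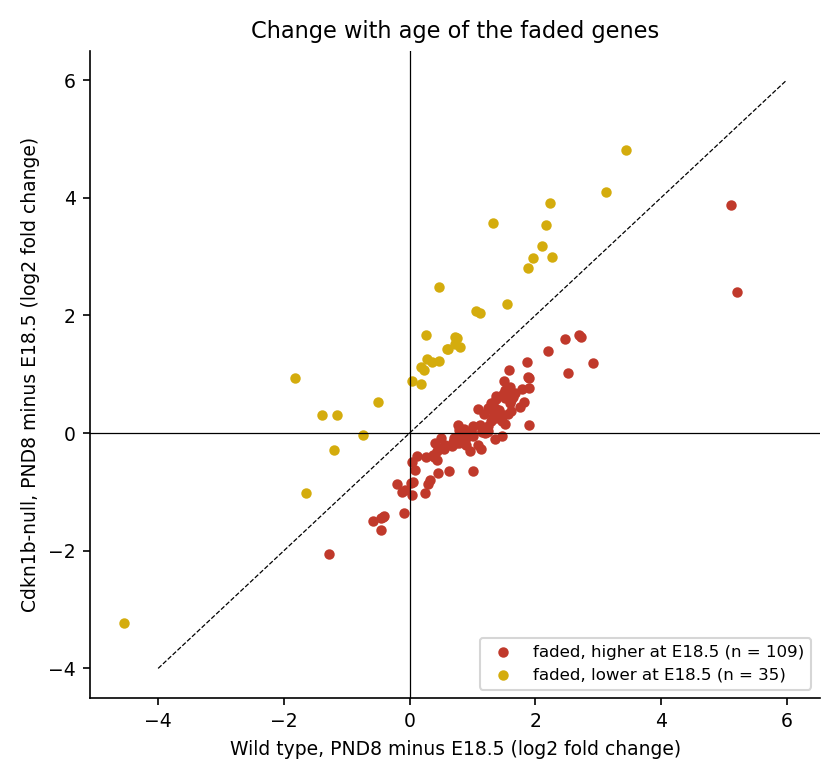
Log2 change from E18.5 to PND8 in wild type (x axis) and in null ovaries (y axis) for the 144 faded genes, with a dashed line where the genotypes change alike. Points of the 109 genes higher in null at E18.5 lie mostly at positive x and on both sides of y = 0, where 39 rose and 28 fell in null ovaries. The 35 lower genes lie above the line.

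A difference at both ages was tested with the larger of the 2 p-values, and 4 genes passed (0.0214%), all lower in null ovaries, among them Hoxd9, Rec8 and Cdkn1b. None passed in the other direction (edgeR quasi-likelihood), while 258 higher and 388 lower genes had an unadjusted p under 0.05 at both ages. Hoxd9, a homeobox gene of posterior patterning and the reproductive tract, measured 29.6, 29.0, 34.9 and 44.0 CPM in wild-type and 18.5, 15.9, 16.0 and 19.2 CPM in null libraries at E18.5. At PND8 it measured 49.7, 50.9, 45.1 and 42.2 CPM against 21.9, 18.0 and 20.4 CPM. Every null library was below every wild-type library at both ages. The log2 fold changes were -0.98 ± 0.13 and -1.23 ± 0.14, and the larger-of-2 test gave an adjusted p of 0.0182 for Hoxd9, Rec8 and Cdkn1b alike (edgeR quasi-likelihood, Benjamini-Hochberg). The count of 4 rested on single libraries: it was 0 without E18.5 null replicate 3 or 4, PND8 wild-type replicate 2 or 3, or any PND8 null replicate, and 1 without E18.5 wild-type replicate 3 or E18.5 null replicate 2.

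Rec8, the meiotic cohesin subunit that holds sister chromatids together, measured 75.4, 62.1, 89.0 and 64.6 CPM in wild-type and 31.1, 23.5, 29.3 and 28.2 CPM in null libraries at E18.5, and 6.41, 14.0, 12.3 and 13.0 CPM against 4.04, 3.33 and 3.23 CPM at PND8. The null libraries were lowest at both ages although Rec8 fell steeply with age in each genotype, by 2.67 in wild type and by 2.98 in null ovaries on the log2 scale. Its fold changes were -1.38 ± 0.19 and -1.69 ± 0.23.

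By the simpler count of a call at each age, 27 genes differed at both ages in the same direction, 6 higher and 21 lower in null ovaries, and none in opposite directions. The count of 27 became 44 without E18.5 wild-type replicate 2, 13 without E18.5 null replicate 3, 17 without PND8 wild-type replicate 1, 11 without PND8 wild-type replicate 2 or 4, and 10 and 12 without PND8 null replicates 3 and 4. The 95% interval of the interaction included 0 in 22 of the 27. The PND8 estimate was the larger in 24 of them. These were selected by few calls at PND8, which favours large estimates at that age. Aside from Cdkn1b the difference between the ages ran from -0.71 (Aox3) to 0.99 (Brinp2). The genes named from here to the end of the paragraph were chosen after their values were seen. Il33, an alarmin cytokine stored in nuclei, had fold changes of -1.22 ± 0.22 and -1.88 ± 0.34 while its wild-type level went from 93.1 to 154 CPM at E18.5 to 1.19 to 3.23 CPM at PND8. Mybpc3, the cardiac myosin-binding protein C, was higher in null ovaries by 0.91 ± 0.19 and 1.21 ± 0.18, with 2.08 to 2.99 CPM against 3.86 to 5.34 CPM at E18.5 and 13.6 to 22.2 CPM against 32.2 to 46.1 CPM at PND8. Gja1, the gap junction protein connexin 43 that joins granulosa cells, was higher by 0.44 ± 0.10 and 0.62 ± 0.11. Bche, the butyrylcholinesterase, was higher by 0.83 ± 0.15 and 0.77 ± 0.15. In each of these 4 genes the groups were apart at both ages. Of all genes tested, 13.2% had groups apart at E18.5 and 14.2% at PND8.

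The 8 gained genes were 4 lower and 4 higher in null ovaries at PND8. Edn3, the ligand endothelin 3, measured 31.0, 31.7, 30.6 and 32.4 CPM in wild-type and 29.8, 36.6, 33.5 and 32.6 CPM in null libraries at E18.5, and 19.1, 22.2, 15.3 and 19.8 CPM against 8.07, 10.2 and 8.24 CPM at PND8. The genotypes overlapped before birth and were apart after it. Its log2 fold change was 0.08 ± 0.12 and then -1.11 ± 0.13, a difference of -1.19 ± 0.17 (edgeR quasi-likelihood, Benjamini-Hochberg adjusted p = 0.0102). All 15 fits that left out 1 library kept the Edn3 call, and the fit of all 29 samples did not (adjusted p = 0.312, edgeR). Lmcd1, a LIM domain cofactor that represses GATA factors, measured 114, 110, 106 and 107 CPM in wild-type and 75.9, 81.8, 88.7 and 92.7 CPM in null libraries at E18.5, then 56.2, 71.3, 41.1 and 68.7 CPM against 23.6, 21.3 and 22.1 CPM. Null libraries were below wild type at both ages, by an uncalled -0.36 ± 0.13 at E18.5 and a called -1.41 ± 0.15 at PND8. The Lmcd1 interaction was called in 11 of the 15 fits that left out 1 library.

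Wdr86, a WD-repeat protein, measured 30.6 to 38.8 CPM in wild-type and 43.3 to 53.2 CPM in null libraries at E18.5, and 8.66 to 12.8 CPM against 5.97 to 7.31 CPM at PND8. Its groups were apart in opposite directions, with 0.41 ± 0.13 (not called) and -0.76 ± 0.15, and its interaction call was lost without PND8 null replicate 3. Lrat, which esterifies retinol for storage, was low at every point, with 1.13 to 2.94 CPM in wild-type and 0.203 to 0.511 CPM in null libraries at PND8, and its call held in 6 of those 15 fits. Dleu2, the host transcript of miR-15a and miR-16-1, measured 9.52 to 17.7 CPM in wild-type and 7.46 to 9.64 CPM in null libraries at E18.5, and 1.60, 1.77, 1.67 and 1.56 CPM against 5.59, 4.18 and 3.29 CPM at PND8. All 3 PND8 null libraries were above the wild type, with fold changes of -0.46 ± 0.21 and 1.40 ± 0.23. The Dleu2 interaction was called in all 15 fits that left out 1 library and not with all 29 samples in the fit (adjusted p = 0.102, edgeR). Exons of Dleu2 overlap several predicted genes on the other strand.

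The other gained genes, with Lrat, lay outside the naming rule by their low level or clone name and were named after their values were seen. Gm2044, which shares exons with the Mir202 hairpin, measured 4.23 to 7.41 CPM in wild-type and 10.9 to 13.2 CPM in null libraries at PND8, against 30.1 to 45.4 and 23.1 to 34.9 CPM at E18.5. Gm27624, which shares exon sequence with Tug1 on the same strand, was 0 in all 4 PND8 wild-type libraries. The null libraries held 0.924, 0.409 and 1.02 CPM. Scaled by library totals alone, the mean null level was 7.71 times the highest wild-type floor of 3 counts per library. Adora3, the adenosine A3 receptor, which shares exons with Tmigd3, was 0 in 3 PND8 wild-type libraries and 0.0269 CPM in the fourth, with 0.406, 0.0877 and 0.160 CPM in null libraries. These values lie at or near the floor, and the fold fitted for Adora3 is not read as a size.

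In the 4 genes that were neither faded nor gained, the estimates had opposite signs at the 2 ages. Chrm2, a muscarinic acetylcholine receptor, had -0.82 ± 0.26 and 1.06 ± 0.27. Serpinb6b, a serine protease inhibitor, had -0.32 ± 0.08, called at E18.5, and 0.32 ± 0.08, with 53.7 to 57.8 CPM against 43.2 to 46.0 CPM at E18.5 and 33.8 to 36.3 CPM against 41.0 to 49.4 CPM at PND8. Dclk1, a doublecortin-like kinase, had 0.17 ± 0.12 and -0.70 ± 0.15, and Nsg1, a protein of neuronal endosomes, had 0.29 ± 0.10 and -0.45 ± 0.11. Apart from Dclk1 at E18.5, whose groups overlapped, the groups of these genes were apart at both ages, as were those of 2470 (13.2%) of all genes at E18.5 and 2657 (14.2%) at PND8. The interaction calls of Chrm2, Dclk1 and Nsg1 held in 7, 4 and 9 of the 15 fits that left out 1 library. Serpinb6b, Dclk1 and Nsg1 were named after their values were seen.

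Of 35 genes around p27 itself, 4 were called higher at E18.5 (Rbl1, Cks1b, Skp2 and Cdk2) and 2 lower (Cdkn1b and Ccnd2), 2 were called lower at PND8 (Cdkn1b and Ccnd3), and the interaction was called for Cdkn1b alone. The medians were 0.01 and 0.05, and the first turned sign in several fits that left out 1 library. Skp2 and Cks1b, which form the ubiquitin ligase module that degrades p27, went from 0.62 ± 0.13 to 0.01 ± 0.13 and from 0.79 ± 0.10 to 0.12 ± 0.11. Rbl1, the pocket protein p107, went from 1.08 ± 0.14 to 0.38 ± 0.15. Their differences between the ages were not called, with adjusted p of 0.166, 0.0542 and 0.136 (edgeR quasi-likelihood, Benjamini-Hochberg). Ccnd3, cyclin D3, went from -0.35 ± 0.12 to -0.88 ± 0.14, with 79.9 to 97.1 CPM in wild-type and 42.5 to 61.7 CPM in null libraries at PND8, and its interaction was not called.

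The other inhibitors of the same family were not called at either age or for the interaction. Cdkn1a (p21) measured 16.5 to 26.8 CPM in wild-type and 22.9 to 31.1 CPM in null libraries at E18.5, and 2.36 to 3.92 CPM and 3.01 to 3.81 CPM at PND8. Cdkn1c (p57) measured 353 to 957 CPM and 176 to 857 CPM at E18.5, and 20.8 to 26.1 CPM and 18.2 to 22.1 CPM at PND8. The differences between the ages were -0.25 ± 0.27 and 0.23 ± 0.54, and the sign of the Cdkn1c value turned without E18.5 null replicate 4. Both genes overlap a predicted gene on the other strand. Of 17 targets of p53, none was higher, 3 were lower at E18.5 (Bbc3, Sesn2 and Phlda3), and 1 (Phlda3, which restrains AKT) was lower at PND8, with fold changes of -0.43 ± 0.10 and -0.65 ± 0.11.

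Of 40 genes of meiotic prophase tested, 5 were called lower at E18.5 (Rec8, 4930447C04Rik, Tex12, Ythdc2 and Prdm9) and none higher, beside 4.21% and 4.96% of all genes. One call was made at PND8 (Rec8, lower), and 1 for the interaction (Ythdc2). At an unadjusted p under 0.05 (edgeR quasi-likelihood), 15 were lower and 1 higher at E18.5 (14.9% and 10.8% of all genes). By the same measure 1 was lower at PND8, and 7 interactions were higher and none lower (7.5% and 6.2%). At E18.5 2 of the 40 estimates were above 0. The medians were -0.59 at E18.5 and 0.02 at PND8, the second turning to -0.01 without PND8 wild-type replicate 3 and to -0.10 without PND8 null replicate 3, while 36 of the 40 fell with age in wild type. Ythdc2, an RNA helicase that commits germ cells to meiosis, measured 17.1, 21.6, 16.4 and 20.5 CPM in wild-type and 11.7, 15.1, 11.6 and 10.6 CPM in null libraries at E18.5, and 18.0, 19.7, 19.5 and 20.5 CPM against 22.4, 21.9 and 23.9 CPM at PND8. Its groups were apart in opposite directions, with -0.63 ± 0.13 and then 0.23 ± 0.13, uncalled, and its interaction call held in 4 of the 15 fits that left out 1 library.

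None of 36 oocyte genes was called at either age or for the interaction (edgeR quasi-likelihood), and at an unadjusted p under 0.05 none differed at E18.5, 2 were higher at PND8 and 1 differed between the ages, beside 25.6%, 9.61% and 13.7% of all genes. Their medians were -0.25 at E18.5 and 0.75 at PND8, and the first was 0.42 under limma with sample weights. The E18.5 median was 0.40 without E18.5 wild-type replicate 2, -0.44 and -0.54 without E18.5 wild-type replicates 1 and 3, and -0.003 and -0.51 without E18.5 null replicates 1 and 3. The PND8 median was 0.22 without PND8 null replicate 3 and 0.49 without PND8 wild-type replicate 2. The summed oocyte level in PND8 wild-type libraries ran from 510 to 1769 CPM and in null libraries from 1104 to 2686 CPM. Gdf9, an oocyte growth factor, measured 77.8, 22.2, 30.6 and 89.0 CPM against 52.4, 164 and 81.3 CPM at PND8, which shows the overlap and the spread within a group.

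Of 27 granulosa genes, 4 were called higher at E18.5 (Hsd17b1, Cyp19a1, Inha and Gja1), beside 4.96% of all genes. At PND8 2 were called higher (Kitl and Gja1), beside 0.0963%, and none was called for the interaction. The medians were 0.05 and 0.02, and both turned sign in fits that left out 1 library. At an unadjusted p under 0.05 (edgeR quasi-likelihood), 6 were higher and 2 lower at E18.5 (10.8% and 14.9% of all genes). By the same measure 7 were higher and 3 lower at PND8 (4.19% and 5.41%). For the interaction 2 were higher and 4 lower (7.5% and 6.2%). Hsd17b1 and Cyp19a1, which make estradiol, were low at E18.5, with 0.677 to 1.67 and 0.147 to 0.677 CPM in wild-type libraries and 3.16 to 5.99 and 1.15 to 3.67 CPM in null libraries. At PND8 Hsd17b1 measured 104 to 168 CPM against 150 to 227 CPM, and Cyp19a1 measured 7.16 to 11.5 CPM against 14.9 to 23.0 CPM. The null libraries of Cyp19a1 were above the wild type at both ages, and for Hsd17b1 the groups overlapped at PND8. Kitl, the ligand of the KIT receptor on oocytes, went from 0.34 ± 0.14 to 0.87 ± 0.15, with 179 to 252 CPM in wild-type and 368 to 475 CPM in null libraries at PND8. Its interaction was not called (edgeR quasi-likelihood, Benjamini-Hochberg adjusted p = 0.282), so a gain with age is not shown.

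Of 32 genes of stroma and matrix, 8 were called lower at E18.5, none at PND8 and none for the interaction, with medians of -0.36 and -0.21, and at an unadjusted p under 0.05 10 were lower and 1 higher at PND8 (5.41% and 4.19% of all genes) and 2 interactions were higher (7.5%). The PND8 median was -0.42 without PND8 null replicate 1 and -0.12 without PND8 wild-type replicate 1 or PND8 null replicate 4. Of 28 Hox genes tested, Hoxd8, Hoxd9 and Hoxd10 were called lower at E18.5, and Hoxd9 and Hoxd10 at PND8. Hoxd10 had -0.85 ± 0.22 and -1.32 ± 0.25, and it shares exon sequence with a predicted gene on the same strand. Of 24 interferon and antigen presentation genes, the E18.5 call was higher for 2 and lower for 1, beside 4.96% and 4.21% of all genes. None of the 24 was called at PND8 or for the interaction. At an unadjusted p under 0.05 (edgeR quasi-likelihood), 5 interactions of this list were lower and none higher (6.2% and 7.5% of all genes). By the same measure 4 of its genes were higher and 3 lower at E18.5 (10.8% and 14.9%). At PND8 2 were lower and none higher (5.41% and 4.19%).

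Lists for other cell types were not called for any gene at either age or for the interaction: endothelium (12 genes tested), smooth muscle and pericytes (9), macrophages (13), surface epithelium (9), erythroid cells (8) and mesonephros or oviduct (5). In that order, 0, 3, 1, 0, 0 and 1 of them had an unadjusted p under 0.05 at E18.5, 0, 2, 1, 3, 2 and 0 at PND8, and 0, 1, 1, 0, 1 and 2 for the interaction (edgeR quasi-likelihood), beside 25.6%, 9.61% and 13.7% of all genes. Some list medians were far from 0 with no gene called. The erythroid list had median log2 fold changes of -0.79 at E18.5 and 2.53 at PND8, and surface epithelium of -0.20 and -0.71. The erythroid PND8 median was 1.14 without PND8 null replicate 1, and the E18.5 median was -0.18 without E18.5 wild-type replicate 3 and -1.60, -0.39 and -0.49 without E18.5 null replicates 1, 2 and 4. For surface epithelium the PND8 median was -0.34 and -1.36 without PND8 null replicates 1 and 3, and the E18.5 median was -0.56, -0.10 and 0.10 without E18.5 wild-type replicates 1, 3 and 4 and -0.36 without E18.5 null replicate 3. Surface epithelium summed to 343 to 1432 CPM in wild-type and 847 to 1053 CPM in null libraries at E18.5, and to 214 to 420 CPM and 127 to 331 CPM at PND8. Macrophage genes summed to 55.5 to 96.1 CPM and 46.9 to 75.2 CPM at PND8. The part of these differences in the gene results above was not tested.

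**Figure D5:**
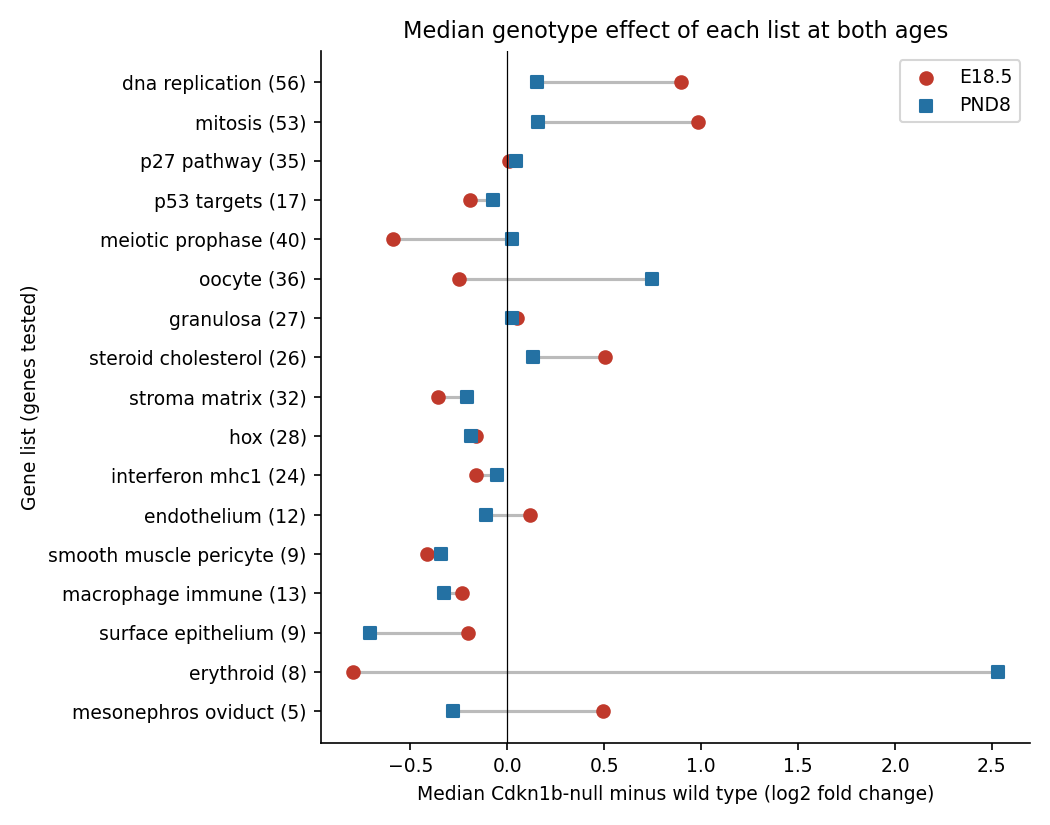
Median log2 fold change of null over wild type at E18.5 (red circles) and PND8 (blue squares) for the 17 lists, with the number of genes tested in brackets; grey lines join the ages. Among the lists that shift toward 0 are DNA replication, mitosis, meiotic prophase and steroid and cholesterol synthesis. The mesonephros or oviduct median (5 genes) goes from 0.49 to -0.28, and the erythroid median rises from -0.79 to 2.53, both with no gene called.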

How the data were processed

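RNA of 29 samples was sequenced, and 15 (E18.5 and PND8) were used here, grouped by their titles. Per the file headers, the authors deposited expected counts per gene from RSEM, which are estimates and can hold fractions of a read. The submitters' processing notes name FastQC 0.11.5, Trim Galore, STAR 2.5.2 and RSEM 1.3.0. The genome build, annotation and strand setting are not given in the sources used here. The table held 51912 IDs, of which 51633 matched a symbol. Positions are those of GENCODE M21 (GRCm38), which may differ from the authors' annotation.

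Expected counts were rounded and fitted in R 4.3.3 with edgeR 4.0.16 (TMM, filterByExpr with minimum count 10 and minimum total 15, robust quasi-likelihood F test) as 4 group means, with Benjamini-Hochberg adjustment over the 18687 genes tested and a threshold of 0.05. SEs were derived from each log2 fold change and its F (size over root F). The change with age within a genotype was added after the data were seen. Code was tested on simulated data. Replicates differed by more than sampling noise in every pair (chi-square per degree of freedom 12.99 to 113.28), so none was treated as a duplicate.

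Genes named were Cdkn1b, Cdkn1a and Cdkn1c, and those with the smallest interaction p, the largest interaction among called genes, the smallest larger-of-2 p among kept genes, or the smallest interaction p in a class or list, with a mean CPM of at least 2 and no clone name except in lists. Some genes that this rule picked are not reported here. Members and lists were chosen with earlier results of these data known. Alternatives were RLE scaling, no filter, DESeq2 1.42.0, limma 3.58.1 with sample weights, thinned counts, all 29 samples, a replicate block, each age alone, and leaving out each library. PND8 null samples are numbered 1, 3 and 4.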

Additional observations from a re-analysis of the deposited data

Results flagged for a closer look

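The genotype difference changed between E18.5 and PND8 for the genes described above, and the change (PND8 minus E18.5, log2) is given here for each that was called. Among genes higher in null ovaries at E18.5 it was -1.52 for Cdc20, -1.72 for Tnni3, -1.29 for Racgap1, -1.22 for Chaf1b, -1.09 for Exo1, -1.31 for Cdt1, -1.66 for Cdc6, -1.45 for Plk1, -1.13 for Top2a, -1.26 for Ccnb1, -1.75 for Bmp4, -2.81 for B3galt5, -0.78 for Fdft1 and -0.87 for Sqle. Among genes lower at E18.5 it was 2.01 for Cdkn1b, 1.03 for Zscan26, 0.71 for Ddhd2, 2.24 for Neat1 and 0.85 for Ythdc2. Among genes whose difference was larger at PND8 it was 1.86 for Dleu2, -1.19 for Edn3, -1.18 for Wdr86, -1.04 for Lmcd1, -2.55 for Lrat, 1.54 for Gm2044, 4.25 for Adora3 and 7.78 for Gm27624. The last 2 are fitted values that depend on the prior count, since wild-type libraries at PND8 were at or near 0, and they are no bound. For the remaining genes it was 1.88 for Chrm2, 0.64 for Serpinb6b, -0.88 for Dclk1 and -0.75 for Nsg1.

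In 4 cases a sample stood far from the rest of its group of 4. B3galt5 was at 11.2 CPM in PND8 wild-type replicate 3, Dleu2 at 7.46 CPM in E18.5 null replicate 2, Lrat at 1.93 CPM in E18.5 null replicate 4, and Adora3 at 0.0269 CPM in PND8 wild-type replicate 4, where the other 3 libraries were at 0. These came from 156 groups looked at, and chance alone flags about 1 group in 20.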

How the results depend on the processing

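RLE scaling, no filter and counts thinned to the smallest library kept every total count of calls within 1.5 times, but with no filter the calls that were lower at E18.5 were 428 in place of 787, and no setting moved the median over all genes by more than 0.1 (log2). With DESeq2 the counts were 580 interactions, 2683 at E18.5, 319 at PND8, 34 kept, 489 faded, 36 gained, 5 reversed and 131 called at both ages. With limma and sample weights they were 449 interactions, 591 at PND8, 391 faded, 26 gained, 8 reversed, 163 at both ages and 34 replication genes. With all 29 samples in 1 fit they were 67 interactions, 884 at E18.5, 0 at PND8 (1143 at an unadjusted p under 0.05), 0 kept (307 unadjusted), 66 faded, 0 gained, 0 at both ages and 10 replication genes. With each age fitted alone they were 814 at E18.5, 62 at PND8 (8 higher and 54 lower, with 27 of the 62 among the 56), 1 kept and 14 at both ages. Apart from that PND8 count, which genes the settings shared is given for the interaction only: 155 of the 156 with DESeq2, 151 with limma and 65 with all 29 samples. The cause of these shifts was not tested.

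Leaving out 1 library gave 49 to 402 interactions, 935 to 2347 calls at E18.5, 20 to 85 at PND8, 0 to 4 kept, 39 to 376 faded, 3 to 10 gained, 0 to 1 reversed, 10 to 44 at both ages, 7 to 34 replication genes and 12 to 34 mitosis genes.

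Same-numbered samples were not taken as pairs. Correlations of their deviations were 0.123, 0.168, 0.157 and 0.053 at E18.5, and 0.133, -0.025 and 0.16 at PND8. Between different numbers they ran from -0.244 to 0.192 at E18.5 and from -0.256 to 0.134 at PND8. This check does not exclude pairing, and the labels tie no number to an animal or litter. Blocking on the replicate number gave 10 interactions (7 higher and 3 lower), 21 calls at PND8, 0 kept (535 at an unadjusted p under 0.05), 6 faded, 4 gained, 10 at both ages, 1 replication gene and 1 mitosis gene. The median interactions of these 2 lists were -0.74 and -0.857 with the block, beside -0.762 and -0.841 without it. Of the 31 genes named for a called interaction, 5 were called with the block (Cdkn1b, Cdc20, Chaf1b, Tnni3 and Gm27624). The calls of Ythdc2, Serpinb6b and Chrm2 were lost with no filter, those of Adora3 and B3galt5 with limma, and those of Adora3, Fdft1 and Nsg1 with thinned counts.

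Interactions near 0 turned sign when 1 library was left out, with values of -0.029 to 0.083 for Cyp39a1, -0.231 to 0.059 for Bche and -0.049 to 0.685 for Cdkn1c. Depth at E18.5 limits genes below 0.132 to 0.173 CPM.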
